A study of Homo sapiens with 5 samples.

Results

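A total of 31 integrin and laminin genes were studied across nuclei of a mixture of human lung adenocarcinoma cell lines. They were rows of the gene list whose symbol was ITGA, ITGB, LAMA, LAMB or LAMC followed by a number, or ITGAV, and they made up 31 of the 36601 genes counted. The lines H2228, H1975, A549, H838 and HCC827, which are established cancer lines, were grown separately without any treatment, frozen, mixed in equal parts and run on the 10X Multiome kit, in which each nucleus gives an RNA profile and a profile of open DNA by ATAC. A single capture was split into an 80% portion and a 20% portion, each with 1 RNA library and 1 ATAC library. A line's name per barcode was not used here, so nuclei were grouped by their RNA profile, and since each portion was 1 library, the comparisons below are levels with counting intervals and no test between groups was possible.

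Integrins are receptors that sit in the cell membrane as a pair of an alpha and a beta chain and tie the cytoskeleton to the matrix outside the cell. Laminins are trimers of an alpha, a beta and a gamma chain and are main components of the basement membrane, the sheet on which epithelia rest. In lung epithelium and carcinomas, laminin-332 (with LAMA3 and LAMB3) and laminin-511 (LAMA5, LAMB1 and LAMC1) are well known forms. Integrins made of ITGA3 or ITGA6 with ITGB1, or of ITGA6 with ITGB4, bind them.

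The 80% portion held 6557 barcodes, 95455518 RNA molecules (UMIs) and 63920767 ATAC counts over 158342 peaks. Clustering on the RNA profile without the integrin and laminin genes gave 6 clusters, numbered 0 to 5, of 2486, 1458, 1449, 468, 366 and 330 nuclei, with median UMI counts of 9136 (cluster 1) to 17562 (cluster 3) per nucleus. Cluster 5 is called HCC827-like, since EGFR, SEC61G, LANCL2 and VOPP1, of the amplified EGFR region known in that line, were all highest there by at least 8.43-fold over the next cluster. Cluster 1 is called A549-like, since the 6 listed NRF2 target genes were all highest there, led by ALDH1A1 at 5381 counts per 1000000 UMIs of the cluster (CPM) against 210 CPM in the next cluster, although 5 of the 6 were also raised in cluster 0 over clusters 2 to 5. There AKR1C3 stood at 946 CPM, ALDH3A1 at 653, AKR1C1 at 486, AKR1C2 at 479 and AKR1B10 at 464, and the A549-like lead was 1.39-fold for ALDH3A1 and 1.91-fold for AKR1C1. The other clusters keep their number and are described by leading genes, NLGN1 and FOXP2 in cluster 0, ZBTB46-AS1 and CARD18 in cluster 2, AL356804.1 and VGF in cluster 3, and TAGLN and MGP in cluster 4. A cluster number need not stand for 1 line. Clusters made from the ATAC counts alone held 89.2% to 97.3% of each RNA cluster in 1 partner. Scrublet called 385 nuclei (5.87%) doublets, from 0.483% of cluster 2 to 12.2% of cluster 3, and 159 barcodes were shared between the portions. The listed epithelial genes were present in every cluster, the leukocyte list summed to at most 16.1 CPM and the endothelial list to at most 14.9 CPM. Fibroblast genes stood at 243 CPM in cluster 0, nearly all of it COL1A1 (242 CPM, with COL1A2 at 1.21). In cluster 4 they stood at 217 CPM, with COL1A1 at 139, COL1A2 at 71.2 and PDGFRB at 5.93 CPM. DCN had 3 UMIs in all.

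The integrin and laminin genes together took 269641 UMIs, 0.282% of the total, with the lowest share in cluster 2 (0.235%) and the highest in cluster 5 (0.340%). ITGB1, the beta chain shared by most of the matrix-binding integrins, alone made 39.3% of these UMIs. Of the 31 genes, 27 had at least 100 UMIs, the minimum set for a fold between clusters. ITGA9 (70 UMIs), LAMB4 (55), ITGB7 (27) and ITGA8 (16) did not reach it. Of the 27 genes, 20 (74.1%) were at least 4-fold higher in their highest cluster than in their lowest, while 37.7% of all 16913 genes with that minimum were. The median of this fold was 8.30 over the 27 genes and 2.93 over all genes. Fewer stood out in a single cluster: 6 of 27 (22.2%) were at least 2-fold above the next cluster, against 15.7% of all genes, and 3 of 27 (11.1%) at least 4-fold, against 5.82% of all genes. Of the 27 genes, 4 (14.8%, against 10.1% of all genes) passed the minimum only through their highest cluster. Outside it, ITGA4 had 6 UMIs, LAMA1 66, ITGA7 77 and ITGA10 86. ITGA4 and LAMA1 are 2 of the 3 genes with a 4-fold lead and 2 of the 6 with a 2-fold lead, so nothing is read from either count. ITGA4, LAMA1 and ITGA10 are also among the 20 genes with a 4-fold spread, a limit on that count. The 6 genes with a 2-fold lead were LAMA4 and ITGA4 in cluster 0, LAMC3 and LAMA1 in cluster 2, and ITGA5 and ITGB3 in cluster 4. The highest level was in cluster 0 for 6 of 27 genes (22.2%, against 19.1% of all genes), in cluster 1 for 7 (25.9%, against 17.3%), in cluster 2 for 4 (14.8%, against 22.9%), in cluster 3 for 4 (14.8%, against 13.7%), in cluster 4 for 3 (11.1%, against 14.1%) and in cluster 5 for 3 (11.1%, against 12.9%). The lowest level was in cluster 4 for 10 of 27 genes (37.0%, against 14.2% of all genes), in cluster 2 for 7 (25.9%, against 24.9%), in cluster 1 for 5 (18.5%, against 16.7%), in cluster 5 for 3 (11.1%, against 19.1%), in cluster 3 for 2 (7.41%, against 10.4%) and in cluster 0 for 0 (against 14.8%). By these values alone, lowest levels were most often in cluster 4 and never in cluster 0 among the 27 genes. Of the 10 genes lowest in cluster 4, only LAMB1 and LAMA5 had an interval there apart from that of the next lowest cluster. ITGA4, LAMA1, ITGA7 and LAMC3 had 0, 2, 4 and 6 UMIs in cluster 4, so nothing more is read from that count.

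**Figure D1:**
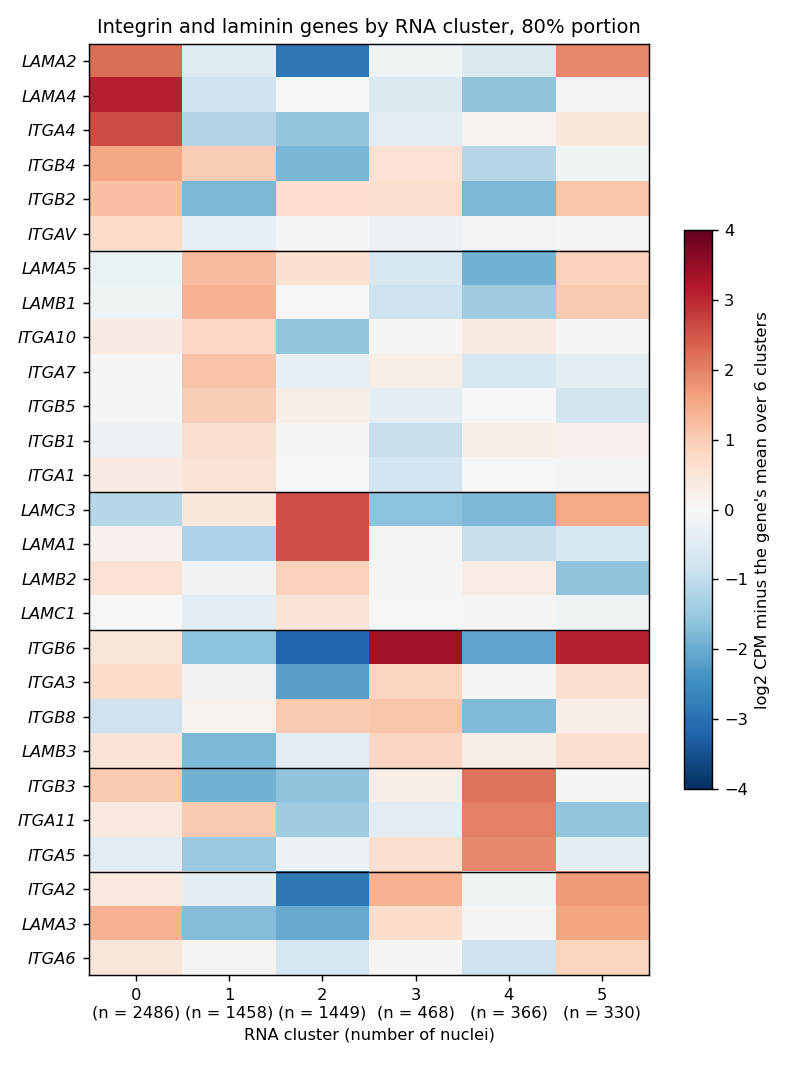
Level of the 27 genes with at least 100 UMIs in each RNA cluster of the 80% portion, as log2 CPM minus the gene's own mean over the 6 clusters; rows are ordered by the cluster in which a gene was highest, and lines separate those blocks. ITGB6 in clusters 3 and 5 and LAMA4 in cluster 0 are the darkest red cells, and ITGB6, ITGA2 and LAMA2 in cluster 2 are the darkest blue ones.

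LAMA3 and LAMB3, chains of laminin-332, were high in clusters 0, 3 and 5 and lowest in the A549-like cluster and cluster 2. LAMA3, the alpha chain, stood at 195 CPM in cluster 0, 22.1 in the A549-like cluster, 18.4 in cluster 2, 121 in cluster 3, 75.7 in cluster 4 and 219 in the HCC827-like cluster (95% Poisson interval 206 to 232, covering counting error only, as do all intervals here). LAMB3, the beta chain, was at 246, 49.98, 126, 313, 202 and 270 CPM in clusters 0 to 5, highest in cluster 3 (302 to 325). The order of clusters thus differed between these chains: the HCC827-like cluster was highest in LAMA3, but 1.16-fold (1.09 to 1.24) below cluster 3 in LAMB3. LAMA3 was 1.20-fold (1.03 to 1.40) higher in cluster 1 than in cluster 2, while LAMB3 was higher in cluster 2 than in cluster 1 and no neighbouring intervals of LAMB3 overlapped.

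The chains of laminin-511 had another order. LAMA5 was highest in the A549-like cluster at 113 CPM (108 to 119), followed by 88.9 in the HCC827-like cluster, 72.8 in cluster 2, 39.8 in cluster 0, 30.1 in cluster 3 and 12.9 in cluster 4. LAMB1 had the same leading pair, with 201 CPM (194 to 208) in the A549-like and 158 CPM (147 to 169) in the HCC827-like cluster, and the same lowest, with 28.3 CPM in cluster 4. No neighbours in either order overlapped. Over the 6 clusters, log2 levels of LAMA5 and LAMB1 had a Pearson correlation of 0.95, which is given as a description over 6 groups of nuclei of 1 library. LAMC1, the gamma chain shared by most laminins, varied least of the laminin genes: it was highest in cluster 2 at 304 CPM (296 to 312) and lowest in the A549-like cluster at 157 CPM (151 to 163), a fold of 1.94. So the A549-like cluster held the highest alpha and beta chains and the lowest gamma chain of this trimer. The sum over the chains ran only from 257 CPM in cluster 4 to 471 CPM in the A549-like cluster.

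**Figure D2:**
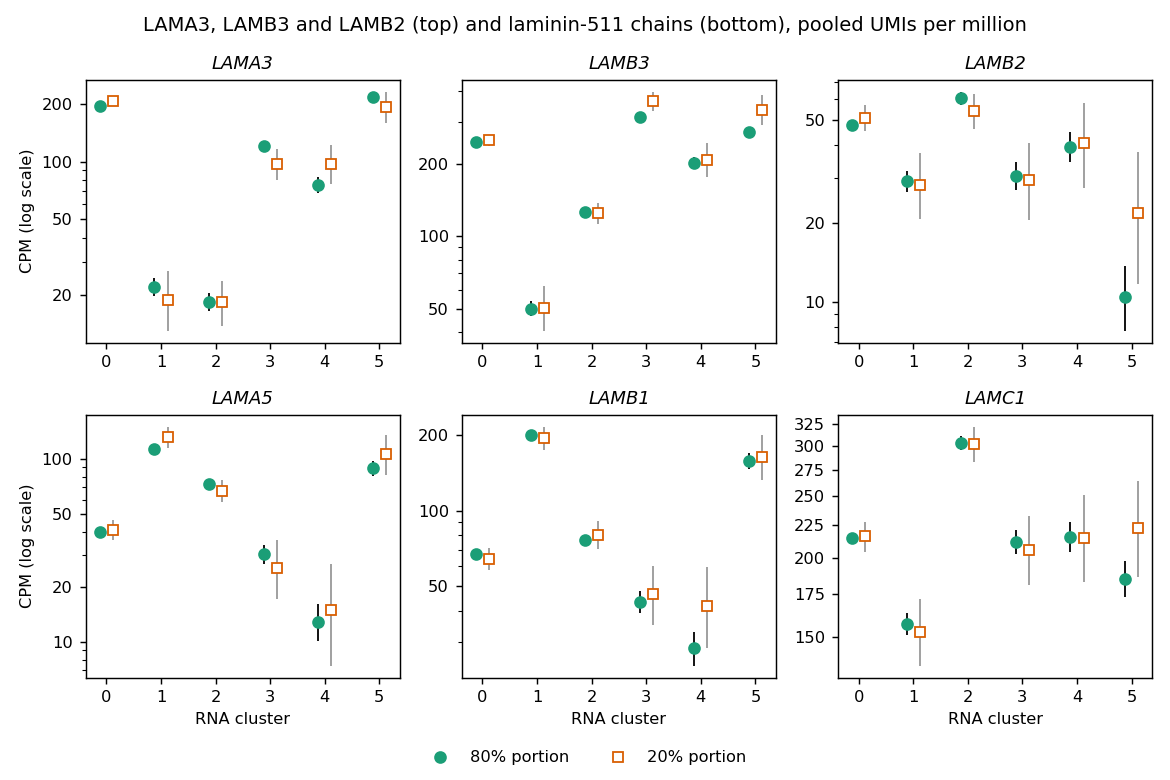
CPM (log axis) of LAMA3, LAMB3 and LAMB2 in the upper row and the laminin-511 chains in the lower row, by RNA cluster, in the 80% portion (filled circles) and the 20% portion (open squares); bars are 95% Poisson intervals. LAMB3 is highest in cluster 3, LAMB2 in cluster 2 and LAMA5 and LAMB1 in cluster 1 in both portions.

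The other alpha chains were low in most clusters. LAMA4, found in vessel and muscle laminins, was at 62.7 CPM (60.3 to 65.1) in cluster 0 and between 2.37 and 7.13 CPM elsewhere, a lead of 8.79-fold (7.40 to 10.5) over cluster 2, the largest of the 27 genes. The cluster 0 level was 71.5 CPM in the 20% portion. There the next cluster was the HCC827-like one, with 5 UMIs, and the lead over it was 8.49-fold. The ratio to cluster 2, with 13 UMIs there, was 16.8. LAMA1, best known from embryonic basement membranes, was at 5.77 CPM (4.74 to 6.95) in cluster 2, from 110 UMIs, and at 1.10 CPM in cluster 0, a lead of 5.26-fold (3.70 to 7.60). In the 20% portion LAMA1 rested on 11 UMIs in cluster 2 and 10 in cluster 0. LAMA2, the muscle laminin alpha chain, was at 14.3 CPM in cluster 0 and 11.6 CPM in the HCC827-like cluster, a ratio of 1.22 (0.932 to 1.64), and at 0.419 to 2.69 CPM in the other clusters.

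LAMB2, a beta chain that can replace LAMB1, was highest in cluster 2 at 60.4 CPM (57.0 to 64.0) and lowest in the HCC827-like cluster at 10.4 CPM (7.76 to 13.7), a cluster in which LAMB1 was above all but the A549-like level. LAMC3, a gamma chain of rarer trimers, was at 21.0 CPM (19.0 to 23.2) in cluster 2 and 10.0 CPM (7.41 to 13.2) in the HCC827-like cluster, a lead of 2.10-fold (1.56 to 2.89), with 4.77 CPM in the A549-like cluster and 1.60 CPM or less in the others. In the 20% portion the same pair stood at 20.6 CPM (15.9 to 26.4) and 11.8 CPM (4.75 to 24.3), a lead of 1.75-fold. The latter level rests on 7 UMIs, and the intervals overlap. LAMB4 had 30 of its 55 UMIs in the A549-like cluster and 10 of its 13 UMIs there in the 20% portion.

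The promoter of LAMA4 is printed because its lead over the other clusters was the largest. It covers the 250 bases before the start at chr6:112254567 on the minus strand (GRCh38.p14, RefSeq), written 5′ to 3′.
LAMA4: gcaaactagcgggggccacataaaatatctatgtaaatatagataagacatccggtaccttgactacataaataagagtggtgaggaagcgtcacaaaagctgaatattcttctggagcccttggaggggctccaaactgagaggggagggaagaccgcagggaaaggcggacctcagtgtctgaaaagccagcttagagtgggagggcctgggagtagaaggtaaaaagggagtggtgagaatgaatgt
This stretch held no match to the motifs searched on both strands, which were the AP-1 motif TGANTCA, the TEAD motif GGAATG, the GC box GGGCGG, the E-box CAGGTG and the TATA box TATAAA. Among 35116 promoters of the same length, 6.57% held the AP-1 motif, 11.9% the TEAD motif, 42.6% the GC box, 17.5% the E-box and 10.7% the TATA box. A peak over the LAMA4 start, chr6:112253743-112254694, carried 8.72 ATAC CPM (counts scaled to 1000000 ATAC counts of the cluster, 95% interval 7.33 to 10.3) in cluster 0 and 8.89 (6.43 to 11.97) in cluster 2, and 0.484 to 3.55 in the other clusters. Clusters 0 and 2, whose LAMA4 levels were 62.7 and 7.13 CPM in RNA, therefore had overlapping intervals in ATAC at the LAMA4 start.

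The LAMB3 and LAMA3 sequences are printed because a peak beside the outer LAMB3 start and the peak over the inner LAMA3 start differed between clusters. The peak beside the outer LAMB3 start, chr1:209652764-209653501, ran from 8.03 ATAC CPM in cluster 2 to 42.1 in cluster 3. The peak over the inner LAMB3 start, chr1:209650918-209651768, differed less, from 8.35 in cluster 2 to 21.3 in cluster 3. The sequences were chosen after the values were seen. LAMB3 has starts about 1 kb apart on the minus strand of chromosome 1, at 209652425 and 209651374, and LAMA3 is shown at its inner start on the plus strand of chromosome 18, at 23873020. Motif matches are in capitals.
LAMB3 outer start: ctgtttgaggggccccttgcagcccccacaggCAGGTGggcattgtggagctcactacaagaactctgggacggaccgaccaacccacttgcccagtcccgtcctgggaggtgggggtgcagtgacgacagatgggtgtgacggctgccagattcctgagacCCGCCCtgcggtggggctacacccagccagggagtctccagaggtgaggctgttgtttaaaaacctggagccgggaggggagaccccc
LAMB3 inner start: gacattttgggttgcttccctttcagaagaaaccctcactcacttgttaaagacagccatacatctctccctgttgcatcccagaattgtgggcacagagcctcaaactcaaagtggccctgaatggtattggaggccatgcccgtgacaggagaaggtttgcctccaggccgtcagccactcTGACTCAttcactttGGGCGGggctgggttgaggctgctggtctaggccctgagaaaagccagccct
LAMA3 inner start: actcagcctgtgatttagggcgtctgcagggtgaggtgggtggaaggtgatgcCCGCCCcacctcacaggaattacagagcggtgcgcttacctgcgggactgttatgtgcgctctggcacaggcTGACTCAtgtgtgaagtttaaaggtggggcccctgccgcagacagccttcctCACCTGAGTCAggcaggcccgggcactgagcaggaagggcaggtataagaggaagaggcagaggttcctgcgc
The outer LAMB3 stretch held a GC box from -88 to -83 and an E-box from -218 to -213, counted from the start. The inner LAMB3 stretch held an AP-1 match from -67 to -61 and a GC box from -52 to -47. The inner LAMA3 stretch held AP-1 matches from -125 to -119 and from -69 to -63, an E-box from -73 to -68 that overlaps the latter, and a GC box from -197 to -192. Promoters were found for 23 of the 31 genes, 30 in all, and these were the only AP-1 matches among them (2 of 30). Of all 35116 promoters, 6.57% held the AP-1 motif, which is near that share, so nothing is read from it. Such matches describe letters and not binding.

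LAMA3 held the widest gap between clusters among the 75 peaks near the starts of the 31 genes. Its starts lie 184 kb apart, and 25 peaks fell in or beside that interval. The peak over the outer start, chr18:23689013-23689900, was within 2.82-fold in all clusters (4.06 to 11.5 ATAC CPM). The peak over the inner start, chr18:23872490-23873368, carried 23.7 ATAC CPM (18.7 to 29.7) in cluster 3 and 28.9 (22.0 to 37.4) in the HCC827-like cluster. It carried 2.05 (1.39 to 2.91) in cluster 0 and 0.532 to 1.499 in clusters 1, 2 and 4. Cluster 0 thus had nearly the LAMA3 RNA of the HCC827-like cluster (195 and 219 CPM) beside much less ATAC signal at the inner start (2.05 and 28.9). In the 20% portion the inner peak was at 39.1 and 30.1 ATAC CPM in clusters 3 and 5, and at 3.67 or less in the others. Cluster 2, lowest in LAMA3 RNA, was instead highest in a peak over an inner exon, chr18:23844777-23845683, with 12.3 ATAC CPM (9.38 to 15.9) against 0.323 to 5.58 elsewhere.

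**Figure D3:**
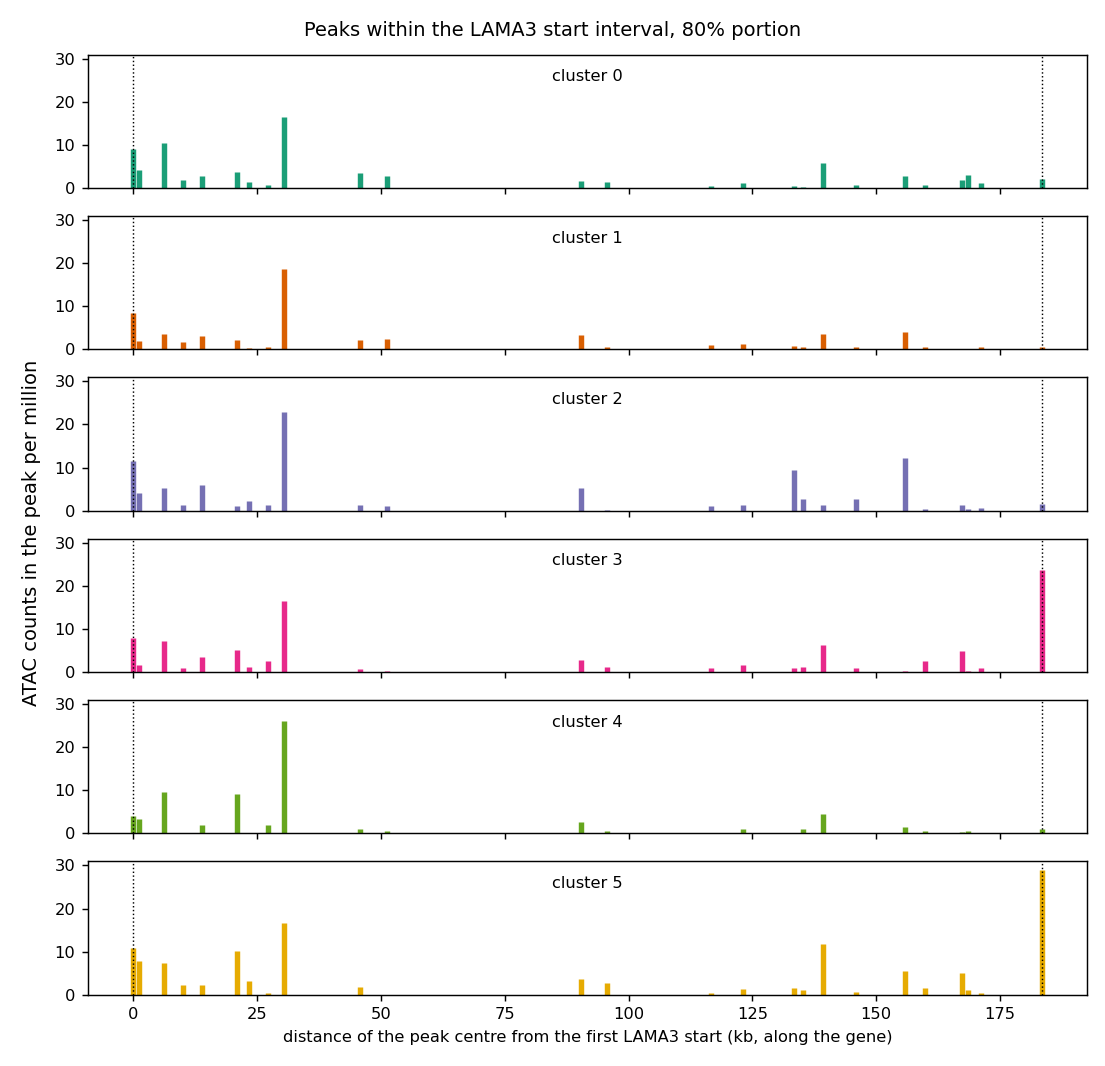
ATAC CPM in each of the 25 peaks within or beside the LAMA3 start interval, by distance of the peak centre from the outer start (kb, along the gene), with 1 panel for each RNA cluster of the 80% portion; dotted lines mark the outer start and the peak over the inner start. The last peak is tall in clusters 3 and 5 alone, at 23.7 and 28.9 ATAC CPM.

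The ATAC counts were then summed over the peaks within 1000 bp of each gene's start interval. Of the 27 genes, 25 had such a peak, and the cluster highest in RNA was also highest in ATAC for 16 of 25 (64.0%), against 46.9% of the 15448 genes with a peak and 100 UMIs. Some matches rest on sums over long intervals, with 25 peaks for LAMA3 and 6 for LAMA1. LAMA1 matched in cluster 2 through a peak inside the gene, chr18:7038138-7039065 (21.6 ATAC CPM). The peak over its outer start was highest in cluster 1 (2.57, against 1.29 in cluster 2). ITGB3 matched at 22.1 in cluster 4 against 22.0 in cluster 2, with overlapping intervals. The intervals of the highest and next ATAC cluster also overlapped for LAMC1, LAMB3, ITGA4, ITGA2, ITGB8, LAMB1, ITGA7, LAMA5 and ITGB2. Of the matching genes, ITGA4, ITGA7 and LAMA1 passed the minimum of UMIs only through their highest cluster. For these reasons nothing is read from the share of matches. The median Spearman correlation of RNA and ATAC over the 6 clusters was 0.66 for the 25 genes and 0.54 for all. Among genes with a 4-fold spread it was 0.66 both for the 18 such integrin and laminin genes and for the 5588 such genes in all, so no difference from other spread genes was seen. LAMB1 had the same order of clusters in both, from 19.2 ATAC CPM (15.8 to 23.0) in the A549-like cluster to 0.508 (0.0615 to 1.83) in cluster 4. LAMB3 ran from 63.4 (55.0 to 72.7) in cluster 3 to 16.4 (13.1 to 20.3) in cluster 2. LAMC3 was highest in cluster 2 in both, with 23.7 (19.5 to 28.4). LAMA5 ranged from 37.3 in the A549-like cluster to 10.7 in cluster 4, with 36.8 in the HCC827-like cluster. ITGA5, ITGAV, ITGA3, ITGB4, ITGA6, LAMA4, ITGA1, ITGA10 and ITGA11 were the 9 genes whose highest clusters differed between RNA and ATAC.

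**Figure D4:**
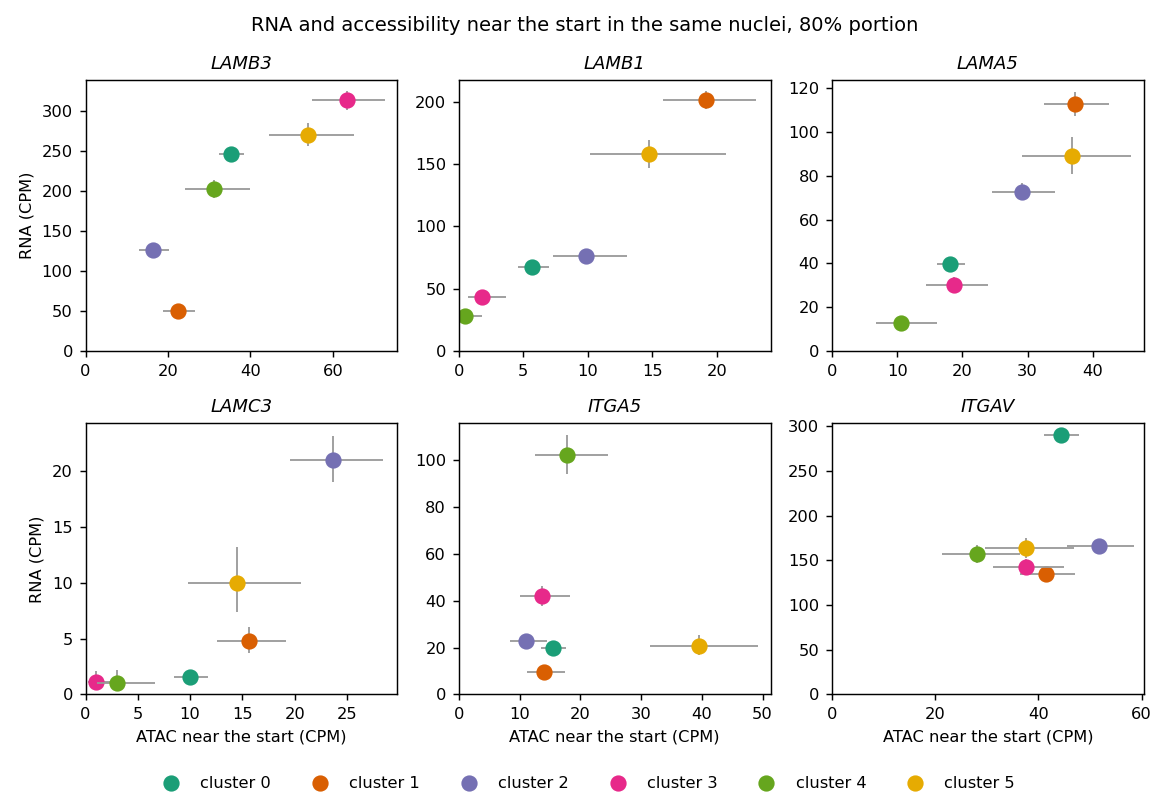
RNA level (CPM, vertical axis) against ATAC CPM summed over the peaks within 1000 bp of the start interval (horizontal axis) for 6 genes. Each point is 1 RNA cluster of the 80% portion and bars are 95% Poisson intervals. LAMB3, LAMB1, LAMA5 and LAMC3 have their highest cluster in common on both axes, while ITGA5 is highest in RNA in cluster 4 and in ATAC in cluster 5, and ITGAV in cluster 0 stands above the other clusters on the RNA axis alone. For LAMB3, LAMB1 and LAMA5 the ATAC interval of the highest cluster overlaps that of the next.

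Among the laminin-binding integrin chains, cluster 2 was lowest in ITGA3 and ITGB4. ITGA6 and ITGA7 had their lowest point values in cluster 4, with intervals that overlapped those of the next lowest cluster. ITGA3, which pairs with ITGB1, was at 298 CPM (287 to 310) in cluster 3, 275 in cluster 0, 248 in the HCC827-like cluster, 166 in cluster 4, 145 in the A549-like cluster and 36.0 (33.3 to 38.8) in cluster 2. ITGB4, the hemidesmosome beta chain that pairs only with ITGA6, was at 87.8 CPM (85.0 to 90.7) in cluster 0 and 8.55 (7.28 to 9.96) in cluster 2, with 13.7 in cluster 4 and 26.8 in the HCC827-like cluster. ITGA6 was highest in the HCC827-like cluster at 284 CPM (269 to 299), so the cluster highest in ITGA6 was not the one highest in ITGB4. ITGA6 was at 84.9 CPM (77.6 to 92.7) in cluster 4 and 93.1 CPM (88.8 to 97.5) in cluster 2. ITGA7, mainly a muscle laminin receptor, had 111 UMIs and 2.32 CPM (1.60 to 3.24) at most, in the A549-like cluster. The ratio of that level to the next, cluster 3, was 1.88 (0.928 to 4.10). In clusters 4 and 5 ITGA7 had 4 UMIs each. Summed, these 4 chains ran from 138 CPM in cluster 2 to 578 CPM in cluster 0. The hemidesmosome adds PLEC, DST, COL17A1 and CD151, of which 2 of 4 were 4-fold spread over clusters and 0 of 4 led by 2-fold, against 37.7% and 15.7% of all genes, which is too few genes to read.

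ITGB1 was the most counted of the 31 genes and was seen in 89.5% to 99.9% of the nuclei of each cluster thinned to 5000 UMIs. It stood at 1716 CPM in the A549-like cluster, 1308 in cluster 4, 1248 in the HCC827-like cluster, 1162 in cluster 2, 945 in cluster 0 and 577 in cluster 3. The A549-like level was 2.97-fold (2.88 to 3.06) that of cluster 3, and the closest neighbours, clusters 4 and 5, had a ratio of 1.05 (1.01 to 1.08). Its ATAC signal had the same end points, 90.7 ATAC CPM (83.2 to 98.6) in the A549-like cluster and 35.2 (29.0 to 42.2) in cluster 3.

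The collagen-binding alpha chains were dominated by ITGA2. It was at 286 CPM (271 to 301) in the HCC827-like cluster, 231 (221 to 241) in cluster 3, 116 in cluster 0, 76.6 in cluster 4, 66.6 in the A549-like cluster and 12.1 (10.5 to 13.7) in cluster 2, a range of 23.7-fold. In the 20% portion the HCC827-like level was lower, 184 CPM (151 to 222), and cluster 3 was highest at 234 CPM. ITGA2 was also uneven between nuclei of the HCC827-like cluster: with each nucleus thinned to 5000 UMIs, the variance over the mean of its counts was 2.99 there, against a median of 1.21 and a 90th percentile of 1.89 over 1114 genes of similar mean. ITGA11, a fibrillar collagen receptor, was highest in cluster 4 at 7.46 CPM (5.42 to 10.0) and at 3.81 CPM in the A549-like cluster. ITGA1 varied 2.43-fold, from 5.72 CPM in cluster 3 to 13.9 in the A549-like cluster, and ITGA10, with 114 UMIs, was between 0.367 and 1.91 CPM.

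Of the chains that bind the RGD motif of matrix proteins such as fibronectin and vitronectin, ITGB6 had the widest range of the 27 genes. It stood at 68.1 CPM (62.8 to 73.8) in cluster 3 and 56.4 CPM (49.9 to 63.5) in the HCC827-like cluster, a ratio of 1.21 (1.05 to 1.40), then at 9.22 in cluster 0, 2.11 in the A549-like cluster, 1.53 in cluster 4 and 0.734 (0.401 to 1.23) in cluster 2. The fold from cluster 3 to cluster 2 was 92.8 (54.9 to 171). In the 20% portion these clusters were at 83.2 and 60.7 CPM, and the others at 7.71 CPM or less. The epithelial genes EPCAM and CDH1 were high in the same clusters, with EPCAM at 683 and 762 CPM in clusters 3 and 5 and between 23.2 and 112 CPM elsewhere, while the whole epithelial list summed to 1369.7 CPM in cluster 2 and 9229.8 CPM in the A549-like cluster, and their part in the result was not tested. ITGB6 makes the alpha-v-beta-6 receptor that activates latent TGF-beta. No peak lay within 1000 bp of its start. The nearest, chr2:160205249-160206157, 4935 bp away, differed far less than the RNA. It had 40.5, 38.2, 34.0, 42.2, 28.4 and 43.9 ATAC CPM in clusters 0 to 5. In the gene, the intronic peak chr2:160180940-160181834 was at 13.7 ATAC CPM in the HCC827-like cluster, 13.0 in cluster 0, 6.13 in cluster 3 and 1.18 to 2.66 in the other clusters.

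The partner ITGAV, the alpha chain of several such receptors, was at 290 CPM (285 to 295) in cluster 0 and between 135 and 166 CPM in the other 5, where neighbouring ratios were 1.01 to 1.10. The ATAC signal summed over the 4 peaks of its start interval was 44.3 ATAC CPM (41.0 to 47.8) in cluster 0, below the 51.7 (45.5 to 58.5) of cluster 2. In the peak over its start alone, chr2:186589575-186590474, it was 36.8 (33.8 to 40.0) in cluster 0 and 45.8 (40.0 to 52.3) in cluster 2. ITGB5, its vitronectin-binding partner, was highest in the A549-like cluster at 184 CPM (177 to 191) and lowest in the HCC827-like cluster at 56.4 (49.9 to 63.5), and the start ATAC was highest in the A549-like cluster at 65.4 ATAC CPM. ITGB8, a further TGF-beta activating chain, was at 15.2 CPM in cluster 3 and 14.4 in cluster 2, a ratio of 1.05 (0.849 to 1.30), and at 2.03 in cluster 4.

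Cluster 4, led by the contractile gene TAGLN and the matrix gene MGP, was highest in ITGA5 and ITGB3, chains of fibronectin and vitronectin receptors. ITGA5, the fibronectin receptor alpha chain, was at 102 CPM (94.2 to 111) in cluster 4, 42.0 in cluster 3, 23.0 in cluster 2, 20.8 in the HCC827-like cluster, 20.0 in cluster 0 and 9.67 in the A549-like cluster. The lead was 2.43-fold (2.14 to 2.78), and 2.18-fold in the 20% portion. ITGB3 was at 20.2 CPM (16.7 to 24.1) in cluster 4 and 9.19 (8.30 to 10.2) in cluster 0, a lead of 2.19-fold (1.77 to 2.70). In the 20% portion the ITGB3 lead was 1.64-fold, with 14 UMIs in cluster 4 and overlapping intervals. At the ITGA5 start, however, the HCC827-like cluster had the highest ATAC signal, 39.6 ATAC CPM (31.4 to 49.3), against 17.8 (12.5 to 24.5) in cluster 4. In the 20% portion these were 24.1 and 6.54, from only 16 and 4 ATAC counts, too few to read the size of the gap. The fibroblast list, at 217 CPM in cluster 4, was at 243 CPM in cluster 0, and its part in the result was not tested. Its genes differed in order, since COL1A1 was highest in cluster 0 (242 CPM, against 139 in cluster 4). COL1A2 (71.2 CPM) and PDGFRB (5.93 CPM) were highest in cluster 4.

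**Figure D5:**
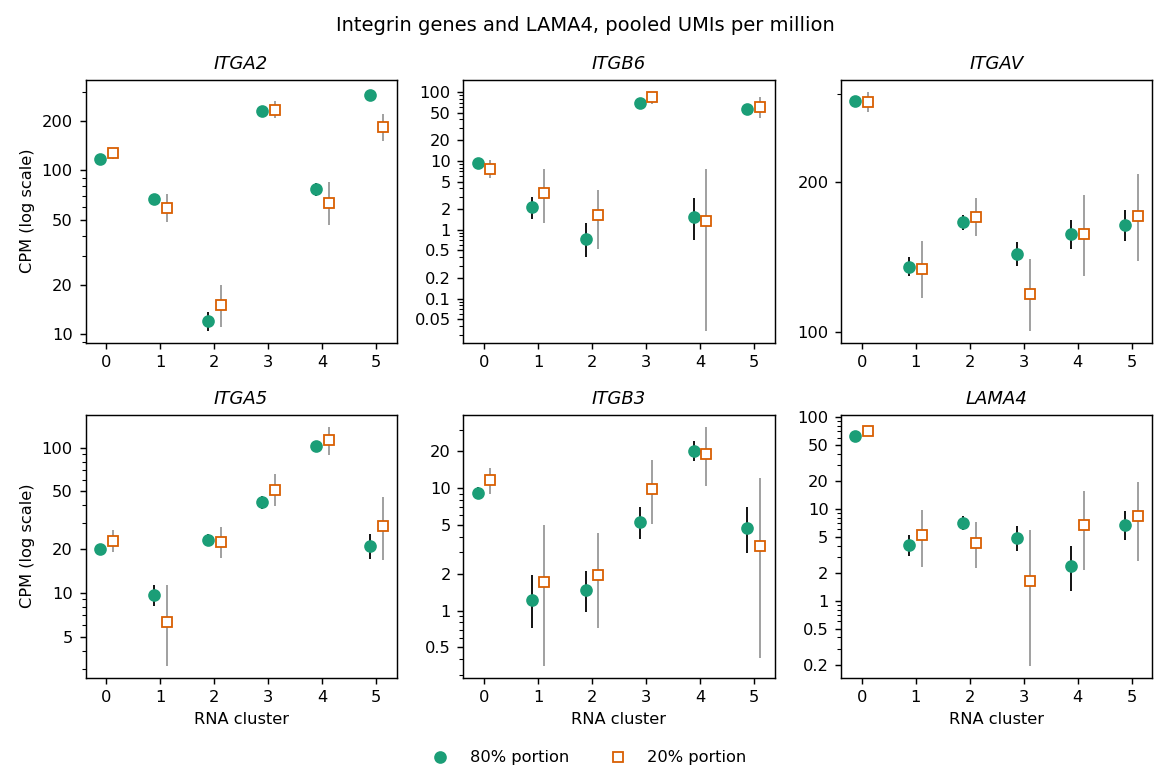
CPM (log axis) of ITGA2, ITGB6, ITGAV, ITGA5, ITGB3 and LAMA4 by RNA cluster in the 80% portion (filled circles) and the 20% portion (open squares); bars are 95% Poisson intervals. ITGB6 is high in clusters 3 and 5, ITGA5 and ITGB3 in cluster 4, and ITGAV and LAMA4 in cluster 0 in both portions.

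ITGA4 and ITGB2 belong to the integrins known mainly from leukocytes. ITGA4 had 124 UMIs, 118 of them in cluster 0 (2.81 CPM, 2.33 to 3.37), and 0 to 2 UMIs in each other cluster. The ratio to the HCC827-like cluster, with 2 UMIs, was 6.88 with an interval of 1.86 to 57.4, and with that cluster at the floor of 3 UMIs it was 4.58. In the 20% portion cluster 0 held 13 of 14 UMIs. The peak over its start, chr2:181456922-181457785, had 5.51 ATAC CPM (4.39 to 6.82) in cluster 0 and 5.15 (3.47 to 7.35) in the A549-like cluster, where ITGA4 had 1 UMI. The 250 bases before that start, at chr2:181457386 on the plus strand, are printed because ITGA4 was 1 of the 3 genes with a lead of 4-fold, and they held none of the motifs.
ITGA4: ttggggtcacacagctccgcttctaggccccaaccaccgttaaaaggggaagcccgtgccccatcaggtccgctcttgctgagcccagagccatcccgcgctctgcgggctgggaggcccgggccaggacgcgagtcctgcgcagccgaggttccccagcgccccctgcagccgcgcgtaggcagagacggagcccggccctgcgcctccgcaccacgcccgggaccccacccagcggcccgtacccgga
ITGB2 was at 19.2 CPM (17.9 to 20.5) in cluster 0 and 18.0 (14.4 to 22.2) in the HCC827-like cluster, near 13 in clusters 2 and 3, and at 2.38 and 2.37 in clusters 1 and 4. Of its usual partners, ITGAL had 15 UMIs, ITGAM 43 and ITGAX 127. The leukocyte markers PTPRC, CD3E and LYZ had 34, 4 and 5 UMIs in all 6557 nuclei, and CD14 and CD79A had 499 and 141. Cluster 0 held 31 of the PTPRC, 0 of the CD3E and 4 of the LYZ UMIs. CD14 was highest in cluster 4 and CD79A in cluster 3.

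In point values, shares of nuclei with a UMI did not always have the order of the levels. LAMA3, highest in cluster 5 by CPM, was seen in 56.0% of cluster 0 and 55.8% of cluster 5 after thinning. LAMB3 was second in cluster 5 by CPM, but was seen in 63.6% of it (58.0% to 68.8%), against 64.4% of cluster 0 (62.5% to 66.3%) and 64.8% of cluster 4 (59.6% to 69.6%). The LAMA3 intervals, 54.1% to 58.0% in cluster 0 and 50.1% to 61.3% in cluster 5, overlapped too. No order between these shares is read. After thinning to 5000 UMIs, which left 6456 nuclei, ITGB6 was seen in 24.9% of cluster 3 and 22.1% of the HCC827-like cluster, and in 0.489% of cluster 2 (48.5%, 39.4% and 0.966% unthinned). LAMA4 was seen in 25.2% of cluster 0 and 0.820% to 3.74% of the others, and ITGA5 in 39.3% of cluster 4 and 4.84% to 19.4% of the others. For pairs of subunits in the same thinned nucleus, 34 of 42 combinations of pair and cluster had at least 20 nuclei with both, and there the share with both was 0.87 to 1.30 times the product of the single shares. ITGAV and ITGB6 were seen together in 13.3% (10.4% to 16.8%) of cluster 3, against a product of 11.6%, and LAMA3 and LAMB3 in 33.3% (28.2% to 38.8%) of the HCC827-like cluster, against 35.4%. ITGA6 and ITGB4 were seen together in 19.8% (18.2% to 21.4%) of cluster 0, against 19.6%. In counts this sparse such small departures are no finding.

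Genes that work beside the integrins and laminins were counted in the same way from a list of 57, of which 54 had 100 UMIs. The list also held 6 integrin alpha genes outside the symbol rule, 3 of them with 100 UMIs and 2 of these 4-fold spread. Over the whole list, 34 of 54 (63.0%) were 4-fold spread and 7 of 54 (13.0%) led by 2-fold, against 37.7% and 15.7% of all genes. All 9 integrin ligands and 8 of the 9 other basement membrane genes were spread, while 11 of the 25 adhesion adaptors that tie integrins to actin were. Among the spread genes, LIMS2, ITGA2B and ITGAX passed the minimum of UMIs only through their highest cluster. They had 48 of 101, 44 of 110 and 88 of 127 UMIs there. This is a limit on the count of 34 and, through LIMS2, on that of the adaptors. The 6 largest leads were those of NID2 and NID1, the nidogens that link laminin to collagen IV, SRC, an adhesion kinase, COL4A6, a collagen IV chain, VTN, which is vitronectin, and ACTN1, an actin crosslinker. NID2 was at 55.6 CPM in cluster 2, 7.36-fold above the next, while NID1 was at 68.5 CPM in cluster 0, 3.05-fold above the next. SRC led by 5.78-fold and COL4A6 by 2.92-fold in the A549-like cluster. VTN was at 208 CPM in cluster 2, 2.74-fold above the next, and ACTN1 at 931 CPM in cluster 4, 2.08-fold above the next.

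The 20% portion gave a second library of the same mixture. After the shared barcodes were left out, 1127 nuclei were given to the RNA cluster whose profile, without the integrin and laminin genes, they resembled most. Applied to the 80% portion itself, that rule placed 97.9% of nuclei where the clustering had. The profiles were made from those same nuclei, so this share does not measure how well nuclei of the 20% portion were placed. The highest cluster was the same for 6 of 6 genes that led by 2-fold (against 94.4%). Nothing is read from that, since ITGA4 and LAMA1 passed the minimum of UMIs only through that cluster. The highest cluster was the same for 24 of 27 genes (88.9%, against 69.3% of all genes). Those 24 include ITGA4, LAMA1 and ITGA10, which passed the minimum only through that cluster, so nothing is read from this count either. The exceptions were ITGA2, highest in cluster 3, LAMA3, highest in cluster 0 at 209 CPM with the HCC827-like cluster at 194 CPM, and ITGA7, with 5 UMIs in cluster 3 and 7 in the A549-like cluster at nearly the same level.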

How the data were processed

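Nuclei of a mixture of 5 cell lines were profiled by 10X Multiome. The authors deposited matrices of raw counts (UMIs per gene and ATAC counts per peak, GRCh38) made, per the labels' processing notes, with Cell Ranger ARC 2.0.0, with 1 matrix for each portion. No source used here says whether intronic reads were counted. All barcodes were kept. RNA counts were normalised, 2000 variable genes without the integrin and laminin genes were reduced to 30 components and clustered with Seurat 5.3.0 (Louvain, lowest resolution with 6 clusters over 1% of nuclei). Scrublet, through scanpy 1.11.5, marked doublets, which were kept. UMIs were summed per cluster, divided by the cluster's total (CPM) and given exact 95% Poisson intervals, for ATAC over fragments, since 90.1% of its values were even; intervals cover counting error only. A cluster with fewer than 3 UMIs was set to 3 for folds. The calls were checked on simulated counts. The members, lists and rules were chosen with earlier results of these data known: members with a lead of 2-fold were described in full, the 6 pathway genes with the largest leads were named, and promoters were printed for leads of 4-fold with a peak within 1000 bp of the start. The LAMB3 and LAMA3 promoters were added outside that rule, after the values were seen. Promoter sequences are RefSeq (GRCh38.p14; LAMA1 not matched), gene start intervals are those of the deposited feature lists, and GENCODE 44 gave the canonical starts and the annotation of peaks. Of 32 genes with matching symbols, 1 is not reported here. The long-read library and the third matrix of the series were not used here.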

Additional observations from a re-analysis of the deposited data

How the results depend on the processing

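Of 21 alternative settings, the count of genes leading by 2-fold (6 of 27) became 2 of 27 in the 20% portion, 2 of 18 with a minimum of 1000 UMIs and 3 of 27 with a fold of 4. With that minimum of 1000 UMIs, which leaves fewer genes, the 4-fold spread held for 12 of 18 genes and the match of RNA and ATAC for 10 of 17. In the other settings run, these counts stayed within 1.5 times (5 to 7 leading, 15 to 22 spread, 11 to 16 matching). The log2 lead turned negative in the 20% portion for ITGA4 (-1.22) and LAMA1 (-0.49), because small clusters there are set to 3 UMIs, although their highest cluster was the same. LAMC3 fell under 2-fold without the called doublets (log2 lead 0.97), with thinned UMIs (0.58) and in the 20% portion (0.81), ITGA4 with thinned UMIs (0.44), and ITGB3 with thinned UMIs (0.86), in the 20% portion (0.71) and with at least 5 clusters (0.29), where clusters 3 and 4 are joined. Of 324 values of single genes, 282 stayed within the counting interval of the reported lead, 40 moved and 2 reversed. Median-of-ratios scaling shifted clusters by at most 0.04 on the log2 scale. No paired analysis was possible because each portion is 1 library and the labels give no replicate numbers. Clusters 4 and 5, with 366 and 330 nuclei, limit the depth: 1 UMI there is 0.169 and 0.204 CPM.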

Other observations

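The integrin and laminin genes separated some clusters more than others. The median absolute log2 difference over the 27 genes was largest between clusters 0 and 2, at 1.83, where it was 0.74 over all 16913 genes. It was 1.69 between clusters 2 and 4 and 1.53 between clusters 4 and 5, against 0.67 and 0.52 over all genes. The smallest was 0.69, between clusters 0 and 3, against 0.53 over all genes. Clusters 3 and 4, which merged when fewer clusters were asked for, differed by a median of 0.87 over the 27 genes and 0.39 over all genes.

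ITGB6 was uneven within cluster 3, with a variance over the mean of 1.78 after thinning, against a median of 1.07 and a 90th percentile of 1.25 over 4178 genes of similar mean, in the cluster with the highest share of called doublets (12.2%). LAMA4 in cluster 0, at 1.10, lay near the median of 1.06 of its similar genes. At the start of ITGB7, a gene with 27 UMIs, the peak 835 bp from the nearest start carried 0.710 ATAC CPM in the A549-like cluster and 8.45 to 16.1 in the others. In the 20% portion it carried 2.78 against 6.03 to 21.4. The 2.78 there rests on 5 ATAC counts and the 6.03, in the HCC827-like cluster, on 4, so no order between these 2 clusters is read.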
